A study of Mus musculus with 2 samples.

Results

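The epidermal growth factor (EGF) family ligands and the ErbB receptors were examined in the lining membrane of the mouse air pouch, and epiregulin (Ereg) was the member with the highest ratio, at 5.08-fold higher in the pool of crystal-injected membranes. The genes were 5 soluble EGF family ligands (Hbegf, Areg, Ereg, Tgfa and Btc), the neuregulin Nrg1 and the receptors Egfr, Erbb2 and Erbb3. They were taken as all probe sets that the platform annotation assigns to 1 of these 9 genes alone. This gave 19 of the 45101 probe sets and 8 of the 18193 named genes, since no probe set was assigned to Areg in the annotation used here.

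Air pouches are cavities raised under the skin of the back with air, whose lining resembles synovium. Mice were female Balb/C animals of 6 to 8 weeks, and no genotype or other treatment is named for either group. The 3 control animals were injected with 1 ml PBS and the 3 MSU animals with 2 mg monosodium urate (MSU) crystals, the crystals of gout, in 1 ml PBS into the pouch, and the membranes were dissected 9 h later. RNA of 3 mice was pooled per condition and each pool was hybridized to 1 array, which left no replicates for a test, and all values describe these 2 pools. Loose leukocytes had been washed out of the pouch before dissection. The dissected membranes could still hold remnants of fat and muscle.

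EGF family ligands are made as proteins anchored in the cell membrane and are released by cutting, mainly by ADAM proteases. They bind EGFR or ErbB4, whereas neuregulins bind ErbB3 and ErbB4. ErbB2 has no known ligand of its own and serves as the preferred partner of the other receptors, and ErbB3 has little kinase activity and signals through such partners. In skin and connective tissue the family is known for its part in growth and wound repair, and several ligands are themselves early transcripts of activated cells.

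Signals are linear intensities per probe set, a set of short probes for 1 transcript. Pairs of signals are given with the control pool first and the MSU pool second. The detection floor of each array, 64.6 for control and 74.1 for MSU, was placed so that as many probe sets lay above it as the study counted as detected. Where both signals reached their floors the ratio is called a fold. It is written as a bound ("at least") against the floor where only 1 did and its signal also exceeded the floor of the other array. Probe sets with neither are called not measured and get plain ratios only. A gene is represented by its brightest probe set, and signals of different genes were not compared with each other because probe sets differ in brightness.

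Of the 8 genes with a probe set, 7 had a fold and 1 (Nrg1) was not measured. Among these 7, only Ereg exceeded the control by 2-fold or more, and none was that far below it. Over all 11155 measured genes, 3.7% reached 2-fold in the upward direction and 4.29% in the downward direction. The signal was higher in the MSU pool for 6 of the 7 genes, against 45% of the 10045 genes with a fold, although the sign for Btc turned under 3 other scalings and that for Erbb2 under 1. The median log2 ratio of the 7 genes was 0.50 and that of all genes with a fold was -0.052. All 18 hybridization spike-in probe sets had higher signals with the MSU sample, the median ratio being 1.37. Scaling on them would take 0.46 off every log2 ratio, and bring the median of the 7 genes to 0.039 and that of all genes to -0.51.

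**Figure D1:**
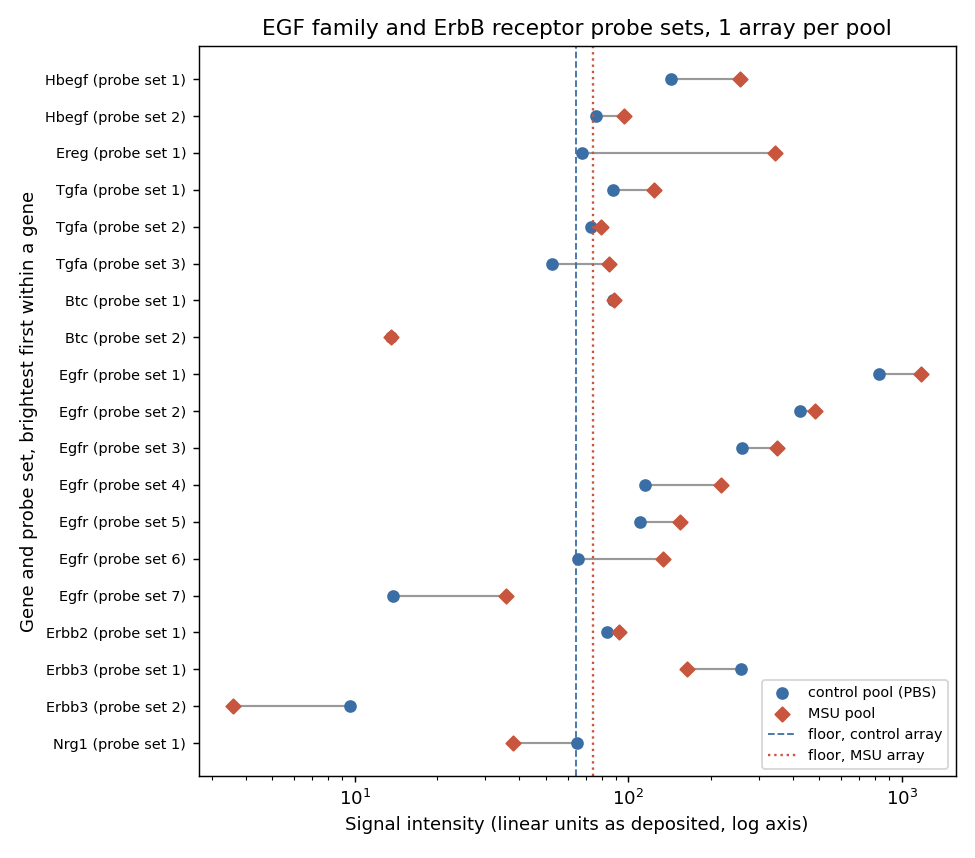
Signal intensity (x axis, log scale) of the 19 probe sets of EGF family ligands and ErbB receptors (y axis) in the control pool (blue circles) and the MSU pool (red diamonds), 1 array per pool, with the detection floors as vertical lines. Ereg lay at 67.5, near the floor, and at 343, all 7 Egfr probe sets were brighter in the MSU pool, and both Erbb3 probe sets were dimmer.

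Among the ligands, epiregulin had the largest difference. Ereg encodes a ligand of EGFR and ErbB4 that is known to be made by macrophages, epithelia and fibroblasts. The signal of its single probe set was 67.5 for control and 343 for MSU. The control signal lay close to the floor of 64.6. Ereg was 5.08-fold higher, a log2 ratio of 2.34, and ranked 36 of the 10045 genes with a fold. Its log2 ratio was 1.89 with spike-in scaling and 1.66 with each array's floor added to the signals. With a floor at the 15000th brightest probe set of each array, the log2 value was a bound of 1.57, since the control signal was below that floor.

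Heparin-binding EGF (Hbegf), a ligand that is held at the cell surface by heparan sulphate, was higher by less. Its brighter probe set had signals of 143 (control) and 257 (MSU), a 1.79-fold higher value. The other had signals of 75.9 and 96.1, or 1.27-fold higher. Both probe sets were thus brighter in the MSU pool, with log2 ratios of 0.84 and 0.34. Their SD of 0.35 was above 0.22, the median SD between probe sets of the same gene over 4002 genes. It was below the 90th percentile of these SDs, 0.51. On its brighter probe set Hbegf ranked 454 of 10045.

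Transforming growth factor α (Tgfa), a ligand of EGFR in epithelia and macrophages, had low signals on all 3 probe sets. The brightest had signals of 88.1 and 124, which is 1.41-fold higher. The second had signals of 73.0 and 79.2, or 1.08-fold higher. The third had signals of 52.6 and 84.8, at least 1.31-fold higher. The MSU signal was the larger on all 3, but the log2 ratio of the brightest, 0.50, was 0.039 with spike-in scaling.

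Betacellulin (Btc), a ligand of EGFR and ErbB4, had near equal signals in the pools. The values were 87.8 and 88.4 on its brighter probe set, a ratio of 1.01. On the other the values were 13.6 in each pool, below both floors. The log2 ratio of 0.0098 turned to -0.062 with median scaling, to -0.038 with quantile normalization and to -0.45 with spike-in scaling, in each case slightly above the median of all genes under that scaling.

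Neuregulin 1 (Nrg1), a ligand of ErbB3 and ErbB4 that is known for its role between nerve and Schwann cell, had 1 probe set. Its signals were 64.9 (control) and 37.9 (MSU). The control signal lay just above the control floor and below the MSU floor, so neither a fold nor a bound was given, and the plain ratio of control over MSU was 1.71.

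The receptor EGFR, which binds all the soluble ligands above, was measured by 7 probe sets, 6 of them above both floors. The brightest had signals of 826 (control) and 1177 (MSU), a 1.42-fold higher value. The next had signals of 423 and 481, or 1.14-fold higher, and the third 259 and 351, or 1.35-fold higher. The MSU pool was brighter on each of these. The remaining probe sets above the floors had signals of 115 and 219, 110 and 154, and 65.6 and 134, with ratios of 1.91, 1.40 and 2.05. On the last, at 13.8 and 35.8, both signals lay below the floors. Over the 6 probe sets with a fold the log2 ratio was 0.60 ± 0.32 (SD, n = 6 probe sets of the same 2 pools, which holds no variation between mice). All 7 probe sets were thus brighter in the MSU pool, with log2 ratios from 0.18 to 1.03 over those with a fold. The log2 ratio of the brightest, 0.51, was 0.053 with spike-in scaling, whereas it lay 0.56 above the median of all genes under both scalings.

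ErbB2, the partner receptor, had 1 probe set with signals of 83.5 (control) and 92.5 (MSU). Its ratio of 1.11, a log2 ratio of 0.15, turned to a log2 ratio of -0.31 with spike-in scaling. Both signals lay near the floors, and the difference was smaller than 0.22, the median SD given above.

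ErbB3, the neuregulin receptor of epithelia and Schwann cells, was, as deposited, the only member with a fold whose signal was lower in the MSU pool. Its brighter probe set had signals of 259 (control) and 164 (MSU), a 1.58-fold lower value. The other lay below both floors, at 9.63 and 3.59. The log2 ratio of -0.66 was -1.12 with spike-in scaling, so that under this scaling 1 member passed 2-fold upward and 1 downward. Of all 11282 genes measured with spike-in scaling, 200 were past 2-fold upward and 1787 downward, in place of 413 and 478 as deposited. Of the 10045 genes with a fold, 11.3% had a lower ratio than Erbb3.

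**Figure D2:**
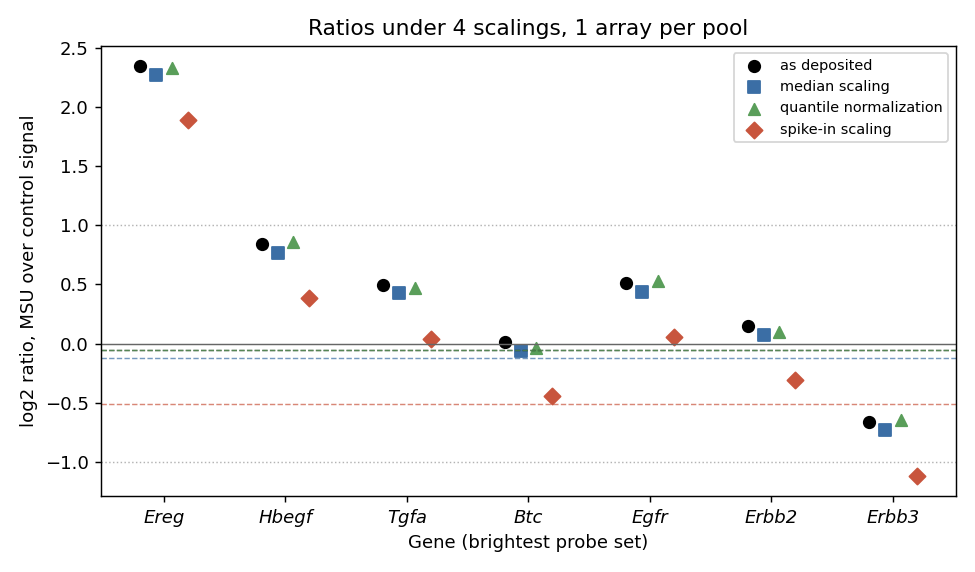
Log2 ratio of MSU over control signal (y axis) for the 7 genes with a fold (x axis) under 4 scalings of the 2 arrays, with the median of all genes under each scaling as a dashed line and 2-fold as dotted lines. Ereg stayed above 2-fold at 1.89 or more, whereas Egfr and Tgfa came to 0.053 and 0.039 with spike-in scaling and Btc and Erbb2 changed sign.

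The bases before the start sites are shown for the 3 genes with a signal and a promoter window at the annotated gene start. As deposited, Egfr was higher on every probe set, Erbb2 was near equal on its only probe set, and Btc was equal on its brighter one. Ereg, Hbegf, Erbb3 and Nrg1 had no window, so the choice did not follow the ratios. RefSeq promoter windows were found for 5 of the 9 genes, of which Areg had no signal and the start of Tgfa lay within its annotated gene. Each line gives the 250 bases before the annotated start in assembly GRCm38.p6, read 5′ to 3′ on the strand of the gene. The windows lie at chr11:16751953-16752202 (Egfr, plus strand), chr11:98412234-98412483 (Erbb2, plus strand) and chr5:91402995-91403244 (Btc, minus strand). Capitals mark matches on either strand to 4 motifs, the GC box, the TATA box, the CCAAT box and the AP-1 site, none of which overlapped another.
Egfr: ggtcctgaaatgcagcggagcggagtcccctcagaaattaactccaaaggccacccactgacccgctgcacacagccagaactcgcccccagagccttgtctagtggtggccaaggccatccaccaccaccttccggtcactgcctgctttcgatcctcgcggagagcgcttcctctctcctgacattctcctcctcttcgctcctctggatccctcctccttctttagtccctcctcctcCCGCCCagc
Erbb2: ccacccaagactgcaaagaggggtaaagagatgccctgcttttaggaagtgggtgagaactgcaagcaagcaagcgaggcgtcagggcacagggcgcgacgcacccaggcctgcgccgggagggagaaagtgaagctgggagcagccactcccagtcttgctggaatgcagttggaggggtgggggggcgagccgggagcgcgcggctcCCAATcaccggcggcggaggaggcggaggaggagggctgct
Btc: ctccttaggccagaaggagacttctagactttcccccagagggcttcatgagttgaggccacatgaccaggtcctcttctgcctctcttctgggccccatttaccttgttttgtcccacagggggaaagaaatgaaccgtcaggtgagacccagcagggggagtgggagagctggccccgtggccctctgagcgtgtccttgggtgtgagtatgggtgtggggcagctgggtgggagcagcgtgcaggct
The Egfr window held a GC box 9 to 4 bases before the start, on the minus strand, and the Erbb2 window a CCAAT box 41 to 37 bases before it. None of the 4 motifs was found in the Btc window, and no TATA box or AP-1 site in any of the 3. The GC box was searched as GGGCGG, which 32.7% of all 32851 windows of this length held on either strand. The letters CCAAT were held by 33.8% of these windows. A TATA box, written TATAAA, was present in 12.4% of the same set of windows. The AP-1 site was taken as TGANTCA and was present in 6.75%. G and C made up 60.8% of the Egfr window, 66% of the Erbb2 window and 59.6% of the Btc window, against a median of 52.4%. These matches describe the sequences and say nothing about binding.

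Of the 6 other ligand and receptor genes (Egf, Epgn, Nrg2, Nrg3, Nrg4 and Erbb4), 2 were measured and none was 2-fold higher or lower. Nrg2 had signals of 89.8 and 104, or 1.16-fold higher, a direction that spike-in scaling turns. Egf itself had signals of 88.0 and 72.3, or at least 1.19-fold lower. Epigen (Epgn) lay below both floors at 34.2 and 56.1, and Erbb4 at 1.58 and 3.35.

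Of 11 measured sheddases and regulators of ligand release, 2 passed 2-fold upward and none downward, and the median log2 ratio was 0.22. Adam8, a protease known from myeloid cells, had signals of 537 and 2796, or 5.21-fold higher. Rhbdf2 (iRhom2), which brings ADAM17 to the cell surface, had signals of 135 and 291, or 2.15-fold higher, which falls below 2-fold with spike-in scaling. ADAM17 (Adam17), the main protease that releases TGF-α, amphiregulin, epiregulin and HB-EGF, was 1.52-fold higher on its brightest probe set, with signals of 747 and 1133. On the other two, its signals were 363 and 916, and 456 and 703, so that all 3 were brighter in the MSU pool. Adam10, which releases EGF and betacellulin, was 1.17-fold higher on its brightest probe set, a direction that spike-in scaling turns, as it does for that of Timp3. Other Adam10 probe sets above the floors had log2 ratios of 0.53 and 0.74, larger than the 0.46 taken off by that scaling. Other Timp3 probe sets had log2 ratios of 0.26, 0.70 and 0.57. Adam9 was 1.42-fold higher, and the inhibitor Timp3 1.34-fold higher. Adam15 and Adam19 were 1.37-fold lower each.

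Of 13 measured adaptors and proximal effectors downstream of the receptors, none passed 2-fold in either direction on its brightest probe set. The median log2 ratio was 0.12. The transcription factor Stat3 came nearest, with signals of 1248 and 2451 on its brightest probe set, or 1.96-fold higher. Of its other probe sets, 1 was at 844 and 1305, or 1.55-fold higher, 1 at 59.1 and 114, or at least 1.76-fold higher, and 1 at 98.5 and 92.0, a log2 ratio of -0.10. On their brightest probe sets, the tyrosine kinase Src was 1.79-fold higher and the docking protein Shc1 1.42-fold higher. The other Src probe set was 1.18-fold higher. Gab2 was 1.42-fold higher on its brightest probe set. A dimmer Gab2 probe set was past 2-fold, with signals of 76.2 and 281, or 3.68-fold higher, a log2 ratio of 1.88. Its control signal lay near the floor. The remaining Gab2 probe set was 1.29-fold higher. The regulatory subunit of phosphoinositide 3-kinase, Pik3r1, was 1.62-fold lower on its brightest probe set, which is past 2-fold with spike-in scaling. Other Pik3r1 probe sets had log2 ratios of 0.20, -0.80 and -0.046. Of 7 measured genes of the Ras-ERK cascade, 1 passed 2-fold upward, namely the kinase MEK1 (Map2k1), which had signals of 743 and 1611, or 2.17-fold higher, which falls below 2-fold with spike-in scaling. Map2k2 was 1.05-fold lower and the median log2 ratio of the list was 0.047.

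Of 19 measured inhibitors of the receptors, 2 passed 2-fold upward and 1 downward. The feedback inhibitor MIG6 (Errfi1), which binds the kinase domain of ErbB receptors, had signals of 1688 and 3665, or 2.17-fold higher. Its other probe set had signals of 1126 and 2218, a log2 ratio of 0.98. Ptpn12, a phosphatase that acts on ErbB receptors, had signals of 903 and 2059, or 2.28-fold higher, with log2 ratios of 0.97, 0.88 and 0.61 on its other probe sets. The ubiquitin ligase Cbl, which marks EGFR for degradation, had signals of 521 and 954, or 1.83-fold higher. Lrig3 was 2.17-fold lower on its brightest probe set, with signals of 235 and 109, but its second, at 137 and 155, had a log2 ratio of 0.17. Lrig2 was 1.75-fold lower, Spry2 1.54-fold higher and the ERK phosphatase Dusp6 1.07-fold higher, a direction that spike-in scaling turns for Dusp6. The median log2 ratio of the list was 0.23. With spike-in scaling none of these inhibitors passed 2-fold upward and 2, Lrig2 and Lrig3, did so downward. Under that scaling 1787 of all 11282 measured genes did so downward.

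Early transcripts that receptor signalling is known to induce had the highest median log2 ratio of the 6 pathway lists, although many other receptors induce them as well. Of 17 measured genes, 8 passed 2-fold upward and none downward, and the median log2 ratio was 0.88. The urokinase receptor Plaur had signals of 562 and 2691, or 4.79-fold higher. Phlda1, at 257 and 973, was 3.79-fold higher and the AP-1 subunit Fosl1, at 132 and 470, 3.57-fold higher. The phosphatase Dusp5 had signals of 15.4 and 429, or at least 6.64-fold higher. Junb was 2.82-fold, Ier3 2.81-fold, Myc 2.46-fold and Dusp1 2.38-fold higher. Fos and Egr1 were 1.60- and 1.35-fold higher and Egr3 1.04-fold lower. With spike-in scaling 6 of the 17 passed 2-fold upward, with Myc and Dusp1 below that size. The directions of Egr1, Klf6, Jun and Atf3 turned on their brightest probe sets. Other Klf6 probe sets had log2 ratios of 0.73, 0.56, 0.49 and 0.15 as deposited.

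**Figure D3:**
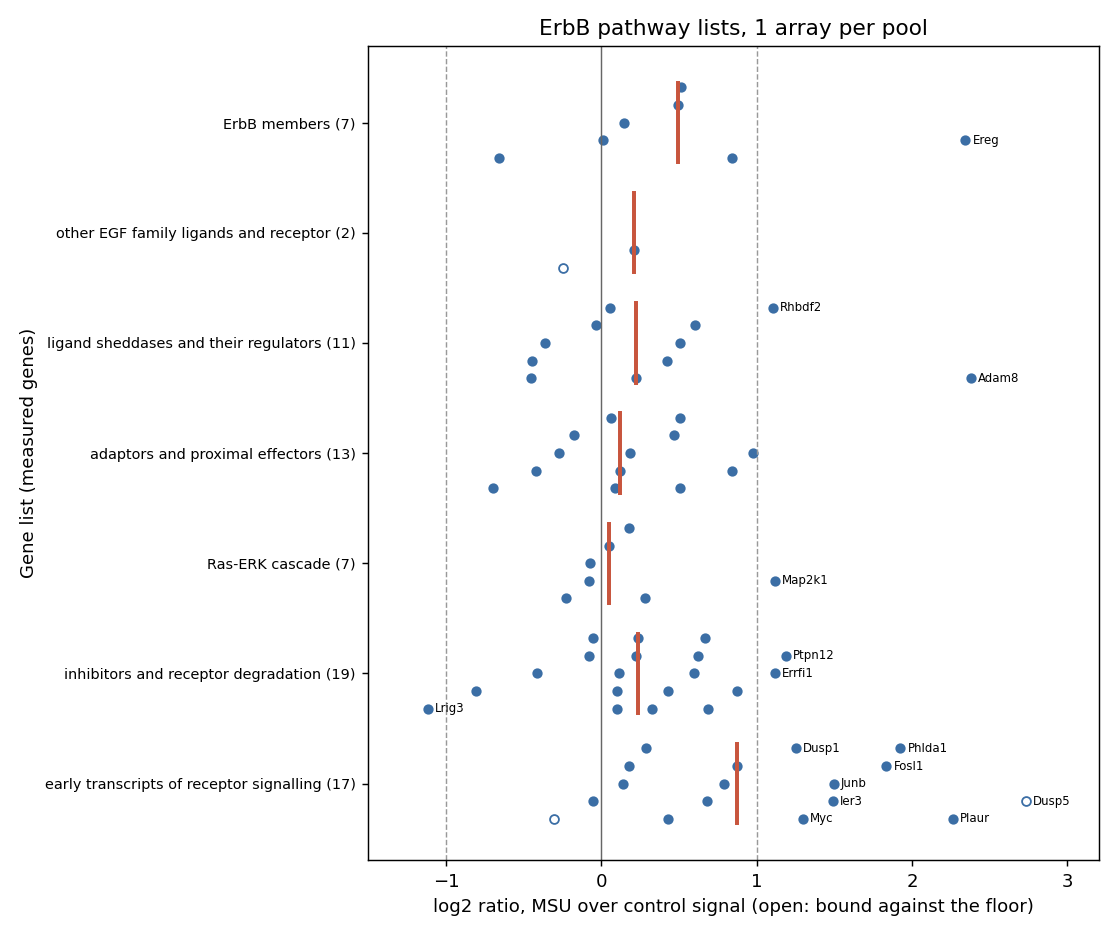
Measured genes of the EGF family and ErbB receptor list and 6 pathway lists (y axis) by log2 of the MSU over control signal ratio (x axis), 1 array per pool, with filled points as folds, open points as bounds, red bars as list medians and dashed lines at 2-fold. Most adaptor and kinase genes lie between the dashed lines, whereas 8 of 17 early transcripts lie to the right of both.

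Markers of several cell types differed between the pools in the same direction as some members, and their part in these ratios was not tested. In whole membranes, fewer cells of a type and less RNA per cell cannot be told apart. Transcripts of the main cells of such a membrane were present, with 10 of 10 fibroblast markers, 10 of 10 macrophage markers and 9 of 10 endothelial markers measured. None of these 3 lists had a gene past 2-fold in either direction on its brightest probe set as deposited. Their median log2 ratios were 0.18, -0.16 and -0.062. Dimmer probe sets of the fibroblast markers Pdgfra and Col1a2 were 2.65-fold higher and at least 2.47-fold lower, respectively. With spike-in scaling 1 gene of each list (Fap, Cd68 and Eng) was past 2-fold downward. Of all 11282 genes measured with that scaling, 1787 were past 2-fold downward, the background for this and for the downward marker counts with that scaling below. For the marker counts as deposited, the background is 3.7% of the 11155 measured genes upward and 4.29% downward.

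Beside the higher ratio of Ereg, all 9 measured neutrophil markers of 10 with a probe set passed 2-fold upward. Their median log2 ratio was 2.90, with a summed signal of 2949 (control) and 24128 (MSU). S100a8 and S100a9 were 10.6- and 12.1-fold higher, and Camp lay below both floors. Of 9 lymphocyte markers, 2 were measured. The cytokine receptor Il7r, at 98.9 and 271, was 2.74-fold higher, which falls below 2-fold with spike-in scaling. The other, Cd8a, had near equal signals of 98.2 and 97.8. Cd3e, Cd3g and Cd4 lay below both floors.

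Beside the lower ratio of Erbb3, 8 of 12 epithelial and keratinocyte markers were measured, 4 of them past 2-fold downward and none upward. With spike-in scaling 6 were past 2-fold downward. Their summed signal was 2138 (control) and 862 (MSU). Krt8 was 2.84-fold lower, Epcam 2.29-fold lower and Krt18 at least 6.61-fold lower, whereas Grhl2, at 114 and 190, was 1.66-fold higher and Krt14 and Krt15 lay below both floors. Of 9 Schwann cell and myelin markers with a probe set, 6 were measured and 1, Ncam1, was at least 2-fold lower, with a summed signal of 4962 and 4678. Sox10, the defining transcription factor of Schwann cells, was 1.62-fold higher on its brightest probe set. On a second Sox10 probe set the signals were 106 and 50.4. Foxd3, Ngfr and S100b lay below both floors.

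Among 12 skeletal muscle markers, all measured, 5 were at least 2-fold lower (8 with spike-in scaling), with a summed signal of 43946 (control) and 27092 (MSU). As deposited, 10 of the 12 were lower and 2 higher. Those higher were Acta1, at 7311 and 8398, by 1.15-fold, and Ttn by 1.08-fold on its brightest probe set, directions that spike-in scaling turns. Of 9 measured adipocyte markers, 8 were at least 2-fold lower, with a summed signal over 10 genes of 12247 and 2847. Of 8 mast cell markers, 6 were measured and none was 2-fold higher or lower, with Cpa3 1.62-fold lower. With spike-in scaling 2, Cpa3 and Cma1, were past 2-fold downward.

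**Figure D4:**
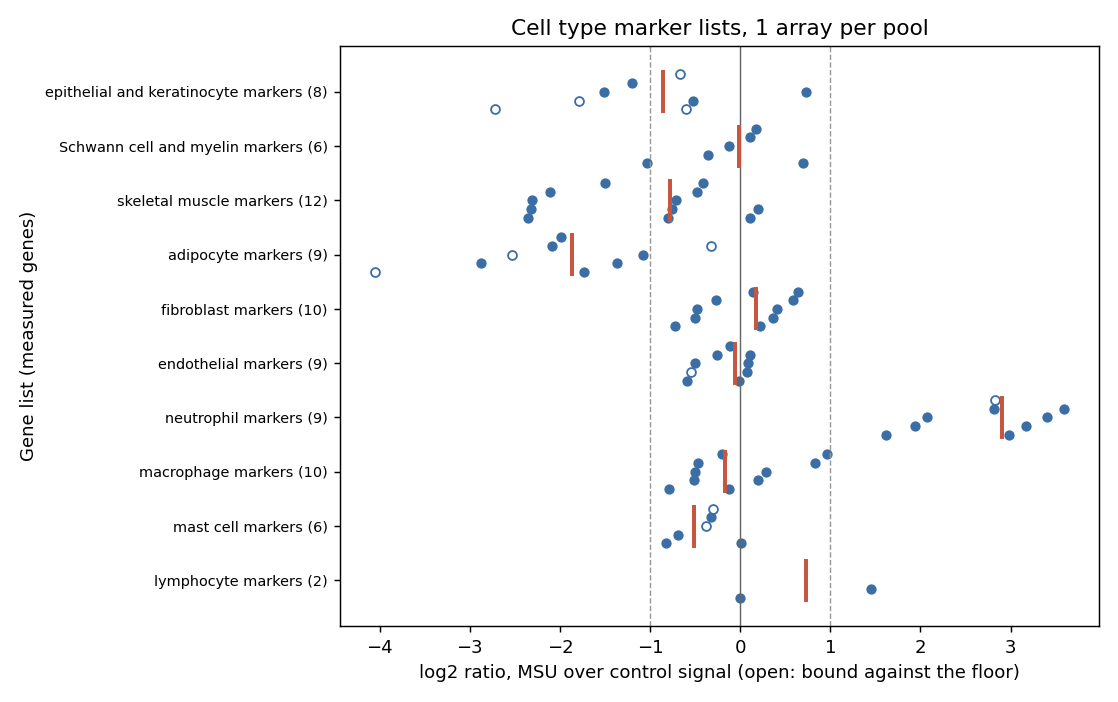
Measured genes of 10 cell type marker lists (y axis) by log2 of the MSU over control signal ratio (x axis), 1 array per pool, with filled points as folds, open points as bounds, red bars as list medians and dashed lines at 2-fold. The 9 neutrophil markers all have log2 ratios or bounds above 1, and 8 of 9 adipocyte markers and 4 of 8 epithelial markers have values below -1.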

How the data were processed

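Signal intensities on Affymetrix Mo430_2 arrays were used as deposited, on a linear scale. The authors obtained them from the scanner software of the array maker. The submitters' processing notes name MAS5, with no version in the sources used here. In the deposited table both arrays have the same mean signal once 2% of probe sets is trimmed from either end. Gene names came from the platform annotation, brought up to date by gene identifier from RefSeq (GRCm38.p6). Probe sets listed for several genes were left out. There were no replicate arrays and hence no p-values, and counts were made at 2-fold, the same size for all genes. The number of arrays limits the precision.

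The 9 genes, the 16 lists of pathway and cell type genes (191 symbols, 176 with a probe set) and the rules were chosen with earlier results of these data known. All probe sets of the 9 genes are given. In each pathway list the genes named are those past 2-fold, those with the largest ratios and the one with the highest signal (a choice of names, not a comparison of levels), and some others were picked with their values in view. The genes nearest to Ereg and Erbb3 in signal, also in the rule, are not given, because levels of different probe sets cannot be compared. Alternatives were median, quantile and spike-in scaling, a floor at rank 15000, no floor, the floor as a pseudocount, the median over probe sets, leaving out _x_at and _s_at probe sets, and 3-fold. The gene step was run on simulated data in which changes were planted only in genes with bright control signals. Among the members only Egfr was that bright, so the simulation did not cover signals near the floor. Computations used Python 3.11.15, numpy 2.4.6 and pandas 2.3.3.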

Additional observations from a re-analysis of the deposited data

How the results depend on the processing

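Ereg was the member at least 2-fold higher under all alternatives tried, 3-fold included, and its log2 ratio ranged from 1.57, a bound with the floor at rank 15000, to 2.34. None was at least 2-fold lower except with spike-in scaling, where the count was 1 (Erbb3) and Nrg1 gained a bound of under 2-fold. The median log2 ratio of the members was 0.50, and 0.039 with spike-in scaling. Btc turned from 0.0098 to -0.062 (median scaling), -0.038 (quantile normalization) and -0.45 (spike-in scaling), and Erbb2 from 0.15 to -0.31 (spike-in scaling). The cause was not tested. Hbegf ranged from 0.39 to 0.86, Tgfa from 0.039 to 0.50, Egfr from 0.053 to 0.53 and Erbb3 from -1.12 to -0.44. With the floor at rank 15000, Btc and Erbb2 had no value. Of 54 member values under alternatives, 43 moved by less than 0.22, the median SD between probe sets of a gene, and 11 by more. Many of the 43 could not move, so this count does not measure robustness. Each member with a fold kept its value with no floor and without _x_at and _s_at probe sets, by construction. Median scaling shifted all members by the same amount. Among all 54, 4 changed sign. Over all genes, the 413 genes past 2-fold upward and 478 downward became 1623 and 1724 with no floor, 333 and 218 with the floor as a pseudocount, and 164 and 80 at 3-fold. No paired analysis was possible because there was 1 array per condition. Signals near the floor (Ereg in the control pool, Tgfa, Btc, Erbb2 and Nrg1) limit what these arrays show of these genes.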

Other observations

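The genes of Ereg, Areg, Btc and Epgn lie beside each other on mouse chromosome 5 in the RefSeq table, next to CXC chemokine genes, and the ratios along this stretch were unequal. These neighbours were chosen by position after the value of Ereg had been seen. On one side, after Epgn, came Mthfd2l, with signals of 117 and 216, or 1.85-fold higher, then Cxcl2 at 15.3-fold higher and Cxcl1 at 8.91-fold higher. Cxcl15 was at least 1.40-fold lower, with signals of 103 and 21.1. On the other side, after Areg and Btc, Parm1 was 1.08-fold higher, a direction that spike-in scaling turns, and Rchy1 was 1.45-fold lower.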
